A study of Mus musculus with 12 samples.

Results

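The genes *Npy*, *Lin28a*, *Lin28b*, *Igf2bp1*, *Igf2bp3*, *Hmga2* and *Mycn* are known for their expression in immature β cells or in fetal growth. They were chosen by name, and make up 7 of the 21738 protein-coding genes of the GENCODE annotation of mm39. Each was described over a window of its gene body and 10 kb on each side. A hypomethylated region (HMR) is a stretch of CpGs whose methylation falls well below that of the genome around it. HMRs called in any of 4 pools of libraries were merged where they overlapped, which gave 87689 merged HMRs, and 49 of these lay in the windows. *Npy* had 3 HMRs, *Lin28a* 8, *Lin28b* 5, *Igf2bp1* 6, *Igf2bp3* 7, *Hmga2* 19 and *Mycn* 1.

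DNA methylation was measured by tagmentation-based whole genome bisulfite sequencing in sorted β cells of Myt1cCre; Ngn3nCre; Rosa26eYFP, InsApple mice. In these mice, eYFP marks cells whose progenitors expressed both Myt1 and Ngn3, since each gene drives a part of a split Cre recombinase, and Apple marks insulin-expressing cells. All 12 libraries carry this genotype. There were 2 libraries of eYFP+ cells and 2 of eYFP- cells at postnatal day 2 (P2), and 4 of each at postnatal day 60 (P60), from females and males. Each library pools cells of several sorts, and thus of several mice. The sample titles name the reporter eGFP and the labels give the cell type as all islet cells, whereas the study sorted eYFP+ and eYFP- β cells. Read counts exist as 1 pool per subtype and stage, so methylation levels have no replicate error. For a single library, HMR positions are given but no counts. Stage cannot be told apart from library preparation and sequencing depth.

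As background, Lin28a and Lin28b are RNA-binding proteins that block the maturation of let-7 microRNAs, and let-7 in turn represses *Lin28* messages and those of growth genes such as *Hmga2*, *Igf2bp1*, *Igf2bp3* and *Mycn*. This circuit is active in fetal tissues and shuts down as they mature. Npy is a peptide hormone that neonatal β cells produce and that is lost from mature ones. DNA methylation is generally low at active promoters and enhancers, and a gain of methylation often accompanies the silencing of such an element.

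The seed of let-7, its bases 2 to 8, pairs with messages and is in capitals in 4 of the 9 mature members of the mouse family, taken from RefSeq (GRCm38.p6), all of which have this seed.
mmu-let-7a-5p: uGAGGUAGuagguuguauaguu
mmu-let-7d-5p: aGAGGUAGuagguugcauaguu
mmu-let-7e-5p: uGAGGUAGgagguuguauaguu
mmu-miR-98-5p: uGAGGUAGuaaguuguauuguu

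Its complement, CTACCTC, was searched on the message strand in the 3′ UTR of each canonical transcript. *Lin28b* and *Igf2bp1* held 4 matches each, *Lin28a* 2 and *Igf2bp3* 1. *Npy*, *Mycn* and *Hmga2* held none, and the canonical *Hmga2* transcript of this annotation carries a 3′ UTR of only 37 bases. At least 1 match was thus present in 57.1% of the members, with 0.651 matches per kb, against 9.92% of all 20843 genes with a 3′ UTR, with 0.0704 matches per kb. A match is a string of letters and not a measured interaction. Shown are a site of each of the 4 genes, with the match in capitals and the 15 bases before it.
Lin28a: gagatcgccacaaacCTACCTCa
Lin28b: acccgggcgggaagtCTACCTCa
Igf2bp1: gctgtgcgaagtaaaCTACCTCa
Igf2bp3: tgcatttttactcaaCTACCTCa

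The pools held 522523439 (eYFP-) and 526479580 (eYFP+) reads on CpGs at P2, and 948851081 and 943805087 at P60. Mean coverage per CpG was 24.2, 24.4, 43.7 and 43.5 reads, in the same order. Methylation levels are given with 95% Wilson intervals, which cover counting error only. The P2 libraries had between 57109 and 60950 HMRs over 55.6 to 58.7 Mb, and the P60 libraries between 38052 and 49939 over 42.7 to 46.1 Mb. At the canonical start of *Iapp*, a β-cell gene, the level was between 0.323% and 4.85%. Of 6 β-cell marker genes, 4 were below 20% within 500 bp of this start in all pools. *Ins1* was at 28.3% and 35.1% in the P2 eYFP- and eYFP+ pools and at 7.87% and 5.74% at P60, and *Ins2* at 12.6% and 20.7% and at 4.86% and 5.47%. None of the 4 acinar and duct markers (21.2% to 85.7%) and none of the 3 immune markers (47.1% to 79.6%) was below 20% in any pool. The duct marker *Krt19* was at 22.8% and 21.2% at P2 and at 56.7% and 52.5% at P60, and what part a shift in cell makeup has in the stage differences was not tested. Among α- and δ-cell markers, *Gcg* was at 54.6% to 62.3%, while *Irx2*, *Sst* and *Hhex* were below 20% in all pools, as was *Kdr* of 3 endothelial markers. At 253 X-chromosome HMRs found in every male and no female P60 library, the P2 eYFP- library labelled female had an HMR at 91.7% and the library labelled male at 13.4%, the reverse of their labels. All 7 genes are autosomal.

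All 7 gene starts lay in a merged HMR that an HMR of every pool and of all 12 libraries overlapped. Whether the HMR of each pool or library covered the start itself was not determined. The gene start is here the outermost annotated start. *Npy* (chr6:49799026-49806489, plus strand, ENSMUSG00000029819.8) had an HMR over its start with a level of 5.44% [4.59, 6.43] in eYFP- and 5.58% [4.75, 6.55] in eYFP+ cells at P2. At P60 it was 10.8% [9.97, 11.7] and 9.16% [8.39, 9.99]. *Lin28a* (chr4:133730641-133746173, minus strand, ENSMUSG00000050966.11) had the highest level, which was 6.26% [5.43, 7.20] and 8.62% [7.62, 9.73] at P2 and 17.2% [16.3, 18.2] and 16.4% [15.5, 17.4] at P60. Its start HMR was the only one of the 7 called between stages, and only in eYFP- cells. Of all HMRs that hold a coding gene start, 2.77% were called higher in eYFP- and 2.62% in eYFP+ cells. HMRs were tested on the pooled reads with Fisher's exact test (two-sided), and a call needed an adjusted p under 0.05 over all HMRs and a difference of 10 percentage points or more. The difference of the *Lin28a* start HMR was +10.98 points (Fisher's exact test, adjusted p = 3.71e-49) in eYFP- cells. In eYFP+ cells it was +7.80 points (Fisher's exact test, adjusted p = 8.33e-23), below the minimum difference. With the mean of CpG levels in place of the share of reads, the eYFP- difference was also below it, at +9.45 points.

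*Lin28b* (chr10:45252646-45362557, minus strand) was flat at its outermost start, with 1.84% and 1.74% at P2 and 2.04% and 1.77% at P60. This HMR is the densest in CpGs of the 7, with 220 CpGs in 1991 bp. The canonical *Lin28b* transcript starts 16201 bp further downstream, where the level was 2.17% and 3.27% at P2 and 5.53% and 4.20% at P60. *Igf2bp1* (chr11:95847989-95896911, minus strand), which encodes a fetal mRNA-binding protein, had 2.21% and 1.69% at P2 and 4.55% and 4.80% at P60. *Igf2bp3* (chr6:49062144-49192447, minus strand), its close relative, had 2.67% and 2.58% at P2 and 8.73% and 8.56% at P60. *Hmga2* (chr10:120197173-120313095, minus strand), an architectural chromatin protein, had 1.39% and 1.03% at P2 and 2.19% and 2.33% at P60. *Mycn* (chr12:12986076-12992915, minus strand), a growth-promoting transcription factor, had 2.57% and 3.36% at P2 and 5.94% and 5.99% at P60. The HMRs over the starts of these 5 genes, taken whole, thus stayed under 9% at both stages, and none of their differences reached 10 points. Except in *Lin28b*, their adjusted p was nonetheless under 0.05 in both subtypes (Fisher's exact test). The same held for the *Npy* start HMR, with differences of +5.37 points in eYFP- and +3.58 points in eYFP+ cells. Within 500 bp of the outermost *Mycn* start alone, the level was 8.24% and 10.6% at P2 and 11.2% and 10.02% at P60, whereas around its canonical start, 1000 bp further downstream, it was between 0.456% and 1.03%.

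**Figure D1:**
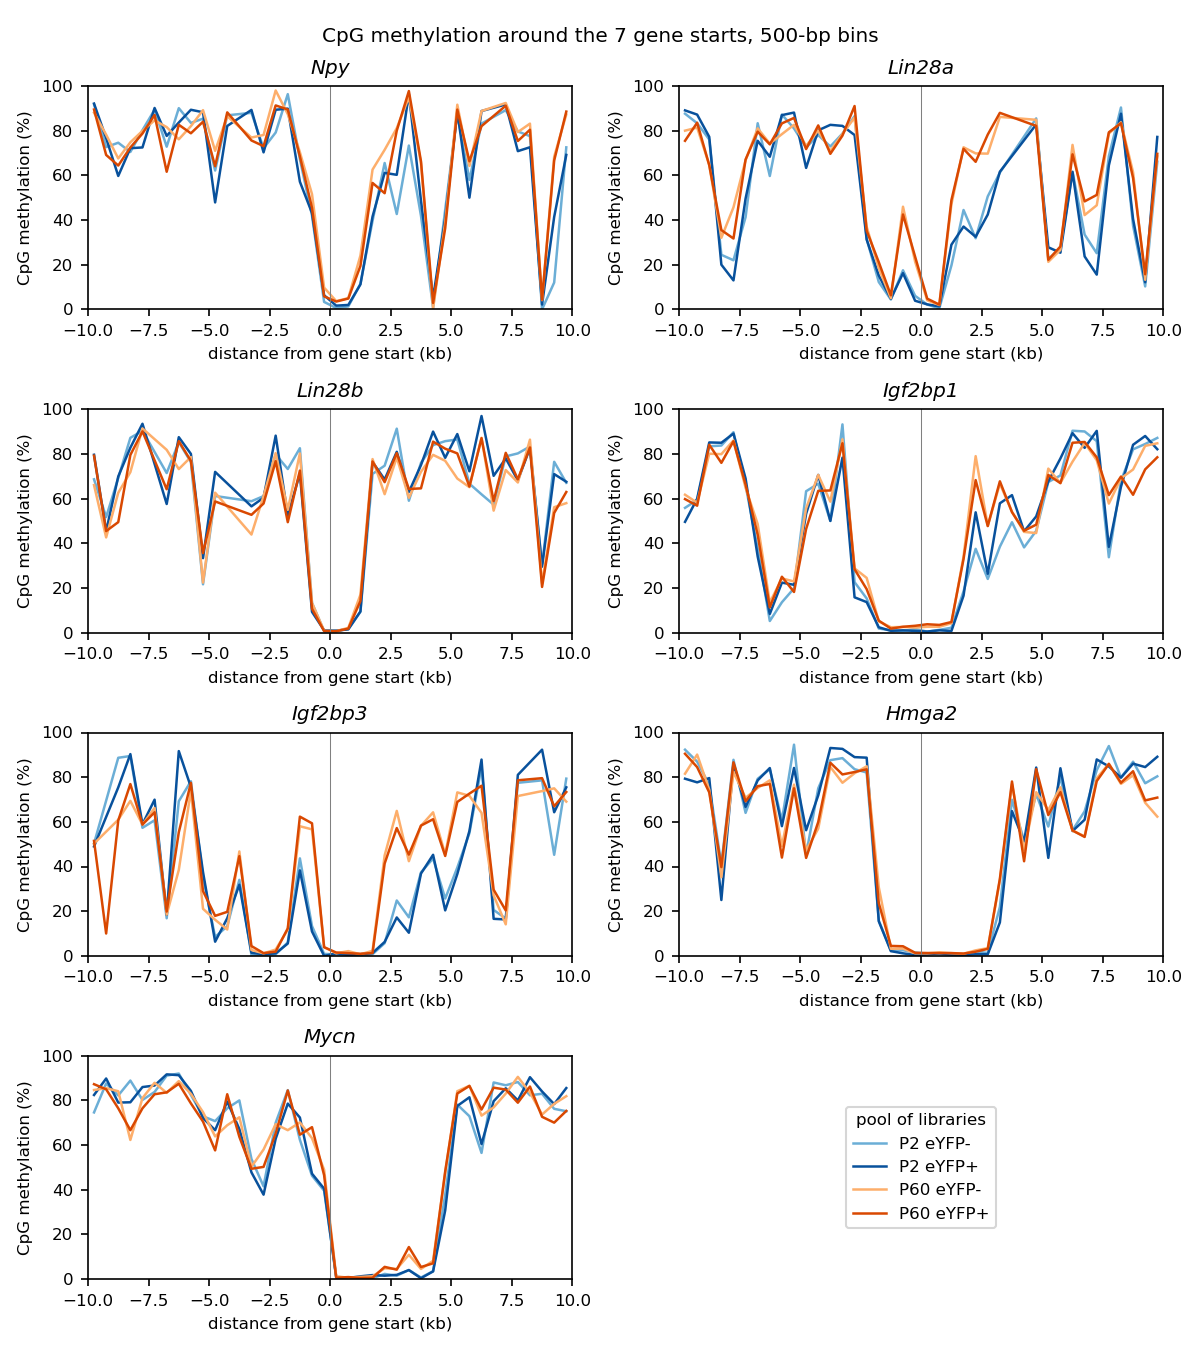
CpG methylation (%) in 500-bp bins against the distance from the outermost gene start (kb, along the gene) for the 4 pools, bins with at least 10 reads. The trough over each start is present in all 4 pools, and in the bin centred 2.25 kb downstream of the Igf2bp3 start the P2 lines are at 5.67% and 6.23% and the P60 lines at 45.0% and 41.4%.

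The HMRs over the starts were narrower at P60 in most of these genes, which could be read in single libraries. Width was counted as the HMR bases of a library inside the merged HMR. In *Igf2bp3*, the 2 eYFP- libraries at P2 had 4411 and 4485 bp, and so did the 2 eYFP+ libraries. At P60, the eYFP- libraries had 2642, 2490, 2671 and 2490 bp and the eYFP+ libraries 2490, 2490, 2833 and 2642 bp. No P60 library came near a P2 library, and the mean width fell by 1854.5 bp to 58.3% of that at P2. In *Lin28a*, widths were 3387 and 3450 bp in eYFP- and 3307 and 3307 bp in eYFP+ libraries at P2. At P60 they were 2531, 2510, 2654 and 2448 bp and 2427, 2632, 2654 and 2425 bp, again without overlap, and the mean fell by 827.6 bp.

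In *Igf2bp1*, the eYFP- libraries had 3865 and 4856 bp and the eYFP+ libraries 4577 and 4856 bp at P2, all above the 3563 to 3769 bp of the 8 P60 libraries. *Mycn* went from 4836 to 4862 bp at P2 to 4395 to 4736 bp at P60, also without overlap. *Npy* went from 1852 to 2141 bp at P2 to 1666 to 1871 bp at P60, where 2 P60 libraries were above the lowest P2 library. The widths of *Lin28b* (1991 bp in all P2 libraries and 1679 to 1991 bp at P60) and *Hmga2* (4837 to 4943 bp and 4466 to 4868 bp) overlapped between stages.

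An exact permutation test of the libraries by stage (two-sided), adjusted over 11753 HMRs at coding gene starts, called 5 of the 7 narrower and none wider. This test takes the libraries as independent, although those of the same subtype, stage and sex may share DNA. The adjusted p was 0.0114 for *Lin28a*, *Igf2bp1*, *Igf2bp3* and *Mycn*, from the smallest p that 4 against 8 libraries allow (0.00202), 0.0266 for *Npy*, 0.0958 for *Hmga2* and 0.902 for *Lin28b*. Over all these HMRs, 26.7% were called narrower and 1.94% wider, and 19% had all P60 libraries below all P2 libraries, as 4 of the 7 had. Only 3.94% kept as small a share of their P2 width as *Igf2bp3* did, and the median share was 95.4%. The call for *Npy* was lost (adjusted p between 0.0676 and 0.0734) without P2 eYFP- replicate 1, P2 eYFP+ replicate 1 or P2 eYFP+ replicate 2. As a share of each library's own HMR bases, which shrank genome-wide, only *Igf2bp3* remained narrower, while *Npy*, *Lin28b*, *Hmga2* and *Mycn* were wider (adjusted p between 0.00367 and 0.00990).

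**Figure D2:**
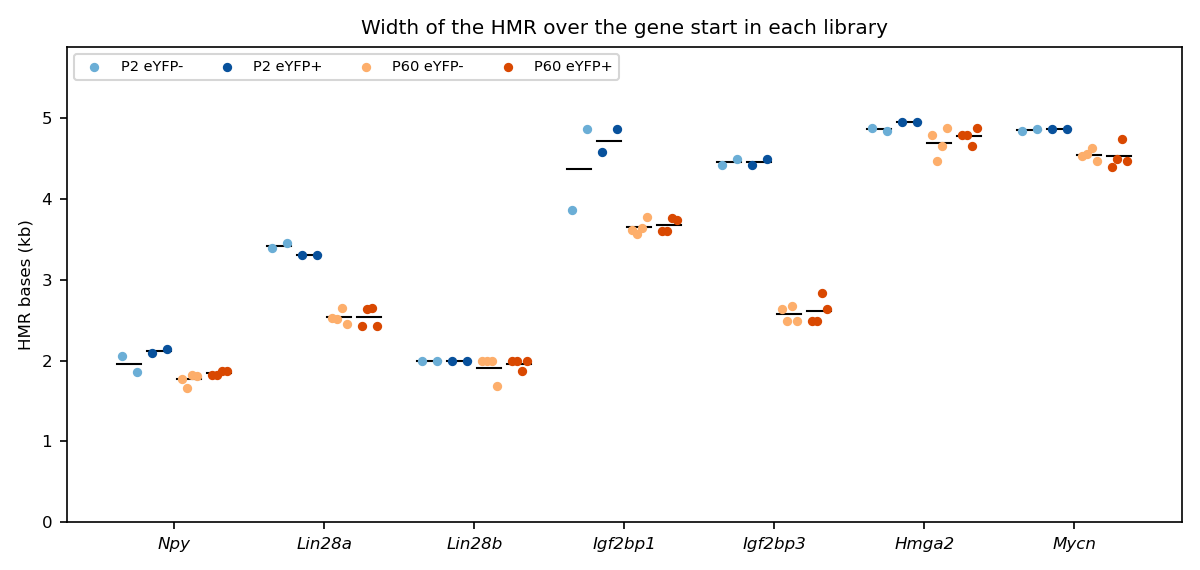
Bases (kb) of the HMR over the gene start in each of the 12 libraries, within the merged HMR, with bars at the mean of each group (2 libraries per P2 group, 4 per P60 group). The Igf2bp3 libraries sit at 4411 to 4485 bp at P2 and at 2490 to 2833 bp at P60.

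The pooled reads showed how methylation differed across these HMRs. The stretch of the *Igf2bp3* start HMR that both P2 pools and neither P60 pool called an HMR spanned 1843 bp with 28 CpGs. Its level was 14.5% [12.2, 17.2] and 12.1% [10, 14.5] at P2 and 57.0% [54.4, 59.6] and 53.8% [51.2, 56.3] at P60. The core of 2642 bp that all pools shared was at 0.604% and 0.717% at P2 and 2.21% and 2.06% at P60. In *Lin28a*, the P2-only stretch of 601 bp with 15 CpGs was at 15.5% [12.2, 19.6] and 15.8% [12.5, 19.9] at P2 and 46.2% [43.0, 49.3] and 43.3% [40.1, 46.6] at P60. Its core of 2632 bp was at 3.67% and 4.81% at P2 and 7.77% and 7.28% at P60. Since these stretches were picked by HMR calls made on the same reads, their levels are a description. The start HMRs of *Igf2bp1*, *Igf2bp3*, *Hmga2* and *Mycn* were at the 95.4th to 96.5th percentile in merged width of the 13176 coding genes with an HMR at the start, whose median was 1800 bp.

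Away from the gene starts, methylation was higher at P60 in a large share of the HMRs. Over all 49, 18 were called higher in eYFP- and 16 in eYFP+ cells, 15 of them in both, and 1 was called lower in both. Across the genome, 27.8% of tested HMRs were called higher and 3.08% lower in eYFP- cells, and 26.4% higher and 4.01% lower in eYFP+ cells. Of all HMRs tested in both subtypes, 22.7% were called higher in both. Of the 41 HMRs that held no coding gene start, 17 and 16 were called higher, against 31.8% and 30.2% of all such HMRs. The median difference between stages over the 49 was +5.11 points in eYFP- and +6.57 in eYFP+ cells, against +2.84 and +2.29 over all HMRs. HMRs of the P2 pools are low at P2 by definition, and those of the P60 pools at P60, and the background shares that choice. The called HMRs had a median length of 492 bp and 2.29 CpGs per 100 bp, and the other HMRs of these genes 682 bp and 3.09. Over all HMRs, these medians were 443 bp and 2.11 for called HMRs and 604 bp and 2.51 for the others.

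**Figure D3:**
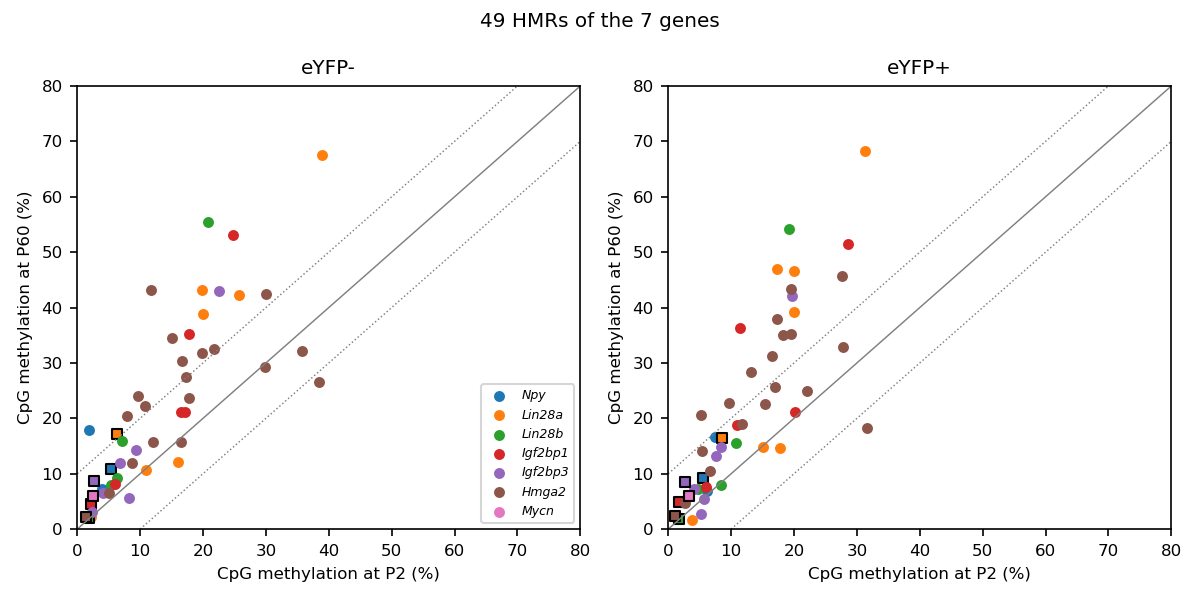
Methylation level (%) of each of the 49 HMRs at P60 against P2, in the eYFP- pools (left) and the eYFP+ pools (right), with squares for the HMRs over the gene starts. Dotted lines mark a difference of 10 percentage points, and 18 (left) and 16 (right) HMRs were called higher at P60.

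The sequences below are from mm39, on the plus strand, each the stretch of at most 300 bases with the most CpGs in the HMR that changed most in its gene, with CpGs in capitals. A base was added at the end where it completes a CpG. In *Lin28a*, this HMR lay in an intron, 1726 bp downstream of the start, over 1017 bp with 18 CpGs. Its level was 38.9% [33.9, 44.1] and 31.3% [26.5, 36.6] at P2 and 67.6% [64.2, 70.7] and 68.2% [65.0, 71.3] at P60. Methylation was thus higher by 28.65 points in eYFP- (adjusted p = 5.36e-18) and 36.88 points in eYFP+ cells (adjusted p = 6.73e-28, Fisher's exact test). Only the P2 eYFP+ pool called this HMR, and of the single libraries only P2 eYFP+ replicate 2 had it. The p-value in eYFP+ cells thus rests on reads that also picked the region. All 8 CpGs of the stretch shown were more methylated at P60 in both subtypes.
Lin28a, chr4:133744173-133744448: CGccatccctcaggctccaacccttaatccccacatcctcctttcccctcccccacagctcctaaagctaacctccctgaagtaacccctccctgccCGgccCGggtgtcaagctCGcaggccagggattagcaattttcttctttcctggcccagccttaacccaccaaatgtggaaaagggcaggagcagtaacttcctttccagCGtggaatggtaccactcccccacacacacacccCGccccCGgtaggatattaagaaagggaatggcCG

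Further *Lin28a* HMRs rose in both subtypes. An intronic HMR 6627 bp downstream of the start went from 25.7% and 17.2% to 42.2% and 47.0%. An HMR upstream of the gene (chr4:133753550-133754290) went from 19.8% and 19.9% to 43.1% and 39.2%. Between them, an HMR 5180 bp downstream was at 16.1% and 15.1% at P2 and 12% and 14.8% at P60 and was not called. Not called either were 2 HMRs that lie in the neighbouring gene *Dhdds*, and an intronic HMR at 11497 bp with few reads, at 20% in both P2 pools and 38.8% and 46.7% at P60 (Fisher's exact test, adjusted p = 0.167 and 0.0530).

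In *Lin28b*, the HMR of largest change lay beyond the end of the gene, 118945 bp downstream of the start, and within an intron of the neighbouring gene *Popdc1*. It was at 20.7% [16.4, 25.8] and 19.2% [15.1, 24.2] at P2 and at 55.5% [51.0, 59.9] and 54.2% [49.7, 58.7] at P60. These differences of 34.77 and 35.01 points (Fisher's exact test, adjusted p = 5.31e-20 and 6.93e-21) were the only calls among the 5 HMRs of this gene. All 7 CpGs shown were higher at P60 in both subtypes.
Lin28b, chr10:45243229-45243528: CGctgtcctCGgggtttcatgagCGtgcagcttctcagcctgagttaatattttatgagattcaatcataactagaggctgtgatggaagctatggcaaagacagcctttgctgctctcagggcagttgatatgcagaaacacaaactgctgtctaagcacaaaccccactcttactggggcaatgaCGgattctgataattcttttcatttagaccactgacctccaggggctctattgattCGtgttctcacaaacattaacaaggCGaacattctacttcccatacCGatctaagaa

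The *Lin28b* window as a whole was at 54.1% and 55.8% at P2 and at 47.5% and 47.9% at P60, while the median window of all genes differed between stages by -0.74 and -1.48 points. The *Lin28a* window went the other way, from 46.3% and 48.5% to 52.7% and 52.3%. These window levels were not tested.

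*Igf2bp1* had 2 called HMRs, both intronic. The one 2419 bp downstream of the start, over 492 bp, was at 24.7% [19.8, 30.3] and 28.6% [23.7, 34.1] at P2 and at 53.2% [49.4, 57.0] and 51.5% [47.8, 55.1] at P60, with Fisher's exact test giving an adjusted p = 5.03e-14 and 2.84e-10. The one 16285 bp downstream went from 17.7% and 11.4% to 35.2% and 36.3%. *Igf2bp3* had 1 called HMR, 4356 bp downstream of the start in an intron. It was at 22.5% [18.2, 27.6] and 19.6% [15.3, 24.8] at P2 and at 43.1% [39.2, 47.0] and 42.1% [38.2, 46.0] at P60, with Fisher's exact test giving an adjusted p = 6.68e-09 and 4.59e-10. Both genes therefore had a called HMR just downstream of the start HMR, and all 8 CpGs of each stretch shown were higher at P60 in both subtypes.
Igf2bp1, chr11:95894001-95894300: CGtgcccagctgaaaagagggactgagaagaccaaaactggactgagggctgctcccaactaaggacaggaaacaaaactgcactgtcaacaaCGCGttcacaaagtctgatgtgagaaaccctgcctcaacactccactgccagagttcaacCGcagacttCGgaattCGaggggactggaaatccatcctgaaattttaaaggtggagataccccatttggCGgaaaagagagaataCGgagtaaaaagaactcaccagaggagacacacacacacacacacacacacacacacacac
Igf2bp3, chr6:49187509-49187808: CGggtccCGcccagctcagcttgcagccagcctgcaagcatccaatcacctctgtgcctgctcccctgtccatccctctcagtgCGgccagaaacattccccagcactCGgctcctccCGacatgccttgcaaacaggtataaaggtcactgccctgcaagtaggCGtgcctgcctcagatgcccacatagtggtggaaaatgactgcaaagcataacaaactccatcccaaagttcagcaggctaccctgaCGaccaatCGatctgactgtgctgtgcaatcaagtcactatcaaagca

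*Hmga2* held the most HMRs, 18 of them intronic, and both directions occurred within its long introns. Of its 19 HMRs, 9 were called higher in eYFP- and 9 in eYFP+ cells, 8 of them in both, and 1 was called lower. The largest change was 81318 bp downstream of the start, in an HMR of 216 bp and 6 CpGs. It was at 11.8% [6.86, 19.4] and 19.5% [14.5, 25.7] at P2 and at 43.1% [36.4, 50.1] and 43.4% [37.7, 49.3] at P60, with Fisher's exact test giving an adjusted p = 7.77e-08 and 3.63e-07. Although both P2 pools differed from both P60 pools, no single library had an HMR here. An HMR of 30 CpGs at 85109 bp was at 9.61% and 9.60% at P2 and at 24.0% and 22.7% at P60, and all 12 libraries had it. An HMR of 237 bp over the microRNA gene *Mir763*, at 28961 bp, went from 15.1% and 16.5% to 34.4% and 31.2%.

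The HMR that was lower at P60 lay 99470 bp downstream of the *Hmga2* start, over 318 bp and 13 CpGs, within the span of the gene *1700006J14Rik*. It was at 38.4% [32.5, 44.6] and 31.6% [26.9, 36.7] at P2 and at 26.6% [23.3, 30.1] and 18.2% [15.4, 21.5] at P60, which gives differences of -11.81 and -13.34 points (Fisher's exact test, adjusted p = 0.00215 and 1.90e-05). Of the pools, only that of P60 eYFP+ cells called this HMR, so the reads that picked the region were also tested. No eYFP- and 1 of 2 eYFP+ libraries had an HMR here at P2, and 2 of 4 and 4 of 4 at P60. In contrast with the HMR at 81318 bp, where all 6 CpGs were higher at P60 in both subtypes, none of its 12 CpGs shown was.
Hmga2, chr10:120231562-120231778: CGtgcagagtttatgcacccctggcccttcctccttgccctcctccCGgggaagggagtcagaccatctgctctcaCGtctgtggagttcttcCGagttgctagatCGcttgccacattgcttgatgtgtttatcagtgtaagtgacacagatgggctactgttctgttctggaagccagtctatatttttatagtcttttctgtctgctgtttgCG
Hmga2, chr10:120213308-120213607: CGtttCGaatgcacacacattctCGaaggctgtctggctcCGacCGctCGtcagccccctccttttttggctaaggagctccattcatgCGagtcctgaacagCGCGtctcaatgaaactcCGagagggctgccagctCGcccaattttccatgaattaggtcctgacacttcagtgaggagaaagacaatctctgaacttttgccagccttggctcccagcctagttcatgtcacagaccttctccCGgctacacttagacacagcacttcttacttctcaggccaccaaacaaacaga

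**Figure D4:**
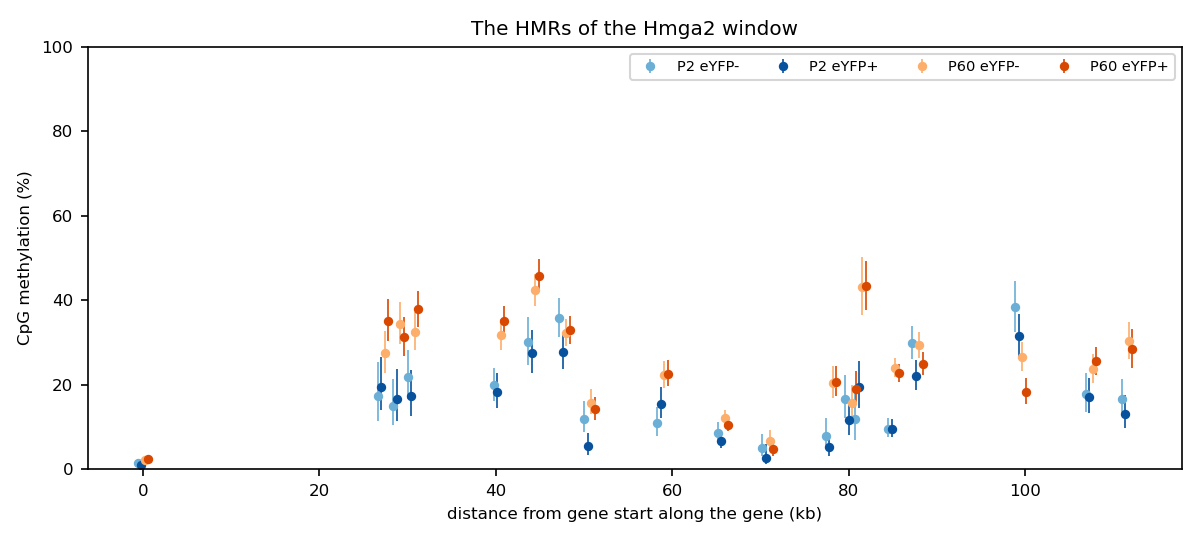
Methylation level (%) of the 19 HMRs of the Hmga2 window against the distance of each from the gene start (kb, along the gene), with 95% Wilson intervals of counting error and a small sideways shift per pool. The start HMR lies near 0%, most intronic HMRs are higher at P60, and the HMR at 99470 bp is lower.

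*Npy* changed less. The HMR of largest change lay 8717 bp downstream of the start, just past the end of the gene, over 327 bp and 7 CpGs. It was at 1.81% [0.616, 5.18] and 7.44% [4.63, 11.7] at P2 and at 17.9% [13.9, 22.8] and 16.7% [13.0, 21.2] at P60. The difference was called in eYFP- cells (+16.11 points, Fisher's exact test, adjusted p = 1.97e-07) and not in eYFP+ cells (+9.22 points, adjusted p = 0.00432). Over the 300 bases that hold 6 of its CpGs, the level was 0% and 2.15% at P2 and 4.11% and 4.31% at P60, so that most of the difference lay at its last CpG. *Mycn* had no HMR other than that over its start.

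In single libraries, 7 of the 49 HMRs were present in all 4 P2 libraries and in none of the 8 P60 libraries. They were the HMRs of *Lin28a* at 6627 bp downstream and in the upstream flank, of *Lin28b* at 118945 bp, of *Igf2bp1* at 16285 bp, of *Igf2bp3* at 4356 bp and of *Hmga2* at 40348 and 111554 bp. Each had p = 0.00202 in Fisher's exact test over libraries (adjusted p = 0.0320). Of the 45 HMRs with presence in any library, these 7 were called lost and none gained, against 6.24% lost and 0.0742% gained over all HMRs. A further 23 were present in all 12 libraries, against 35.2% of all HMRs. Another 15 were present in other subsets of the libraries, some of them at P2 alone, and 4 in none. Leaving out any of the 4 P2 libraries (eYFP- replicate 1 or 2, eYFP+ replicate 1 or 2) left no call among these genes or elsewhere in the genome.

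Each of the 7 windows held fewer HMR bases at P60. *Hmga2* had 11174 and 12011 bp in the eYFP- and 13356 and 11323 bp in the eYFP+ libraries at P2. At P60 it had 8444, 6986, 7684 and 7866 bp and 7868, 6987, 8278 and 7517 bp. The stages did not overlap, at 11966 ± 996 (SD, n = 4) against 7704 ± 534 bp (SD, n = 8). *Igf2bp3* had 9876 to 10314 bp at P2 and 5476 to 7920 bp at P60, with means of 10148 ± 189 and 6413 ± 741 bp. *Lin28a* had 6566 to 7071 bp and 4357 to 4723 bp, with means of 6787 ± 209 and 4553 ± 133 bp. Those of *Lin28b* (7136 ± 71.8 and 6167 ± 283 bp) and *Mycn* (4873 ± 44.1 and 4531 ± 107 bp) did not overlap either. *Igf2bp1* (8679 ± 1268 and 6216 ± 535 bp) and *Npy* (2952 ± 169 and 2309 ± 350 bp) overlapped by 1 library at each stage.

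In the exact permutation test over libraries, the adjusted p was 0.00640 for the 5 genes without overlap, 0.0113 for *Igf2bp1* and 0.0238 for *Npy*. Of all 18192 coding genes tested, 48% were called lower and 1.42% higher, so a lower count is common. *Npy* lost its call (adjusted p between 0.0630 and 0.0671) without P2 eYFP- replicate 1, P2 eYFP+ replicate 1 or P2 eYFP+ replicate 2. As a share of each library's own HMR bases, *Lin28a*, *Igf2bp3* and *Hmga2* were still lower (exact permutation test, adjusted p = 0.00659, 0.0204 and 0.00659), *Npy* and *Igf2bp1* differed by less than the threshold, and *Lin28b* and *Mycn* were higher (exact permutation test, adjusted p = 0.0244 and 0.00659).

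**Figure D5:**
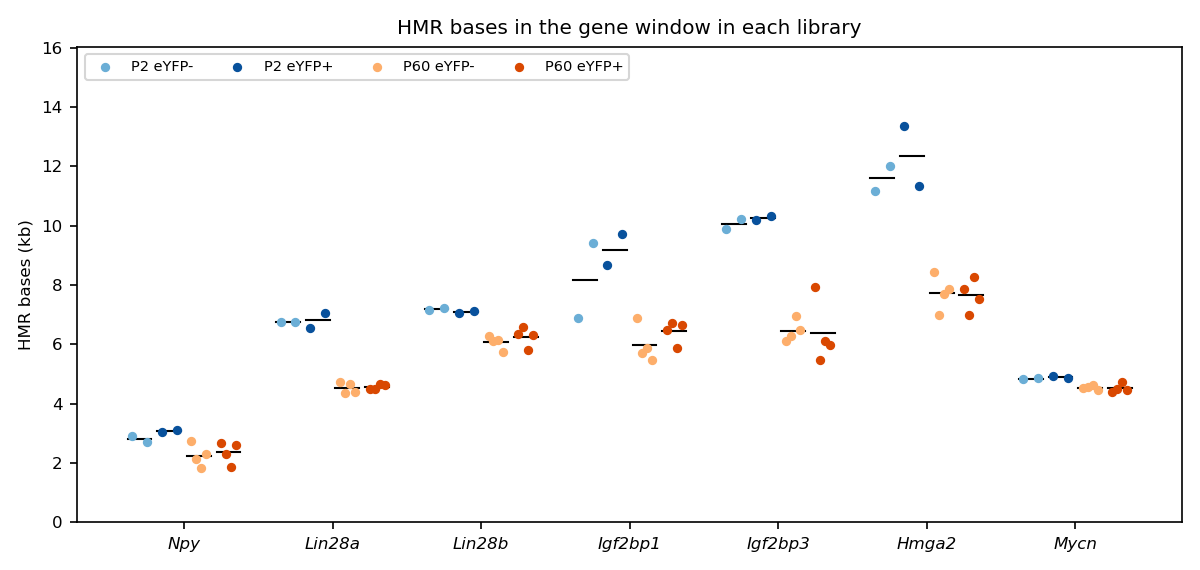
HMR bases (kb) in the gene body and 10 kb on each side in each of the 12 libraries, with bars at the mean of each group (2 libraries per P2 group, 4 per P60 group). The P60 libraries lie below those of P2 in Lin28a, Lin28b, Igf2bp3, Hmga2 and Mycn, and the stages overlap in Npy and Igf2bp1.

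The subtypes differed little in these genes. None of the 49 HMRs was called between eYFP+ and eYFP- cells at P2 or at P60. An unadjusted p under 0.05 (Fisher's exact test) occurred at 12 at P2 and 4 at P60. The share of all HMRs at this threshold was not determined, so these counts cannot be set against the genome. Across the genome, 0.893% were called higher and 0.476% lower in eYFP+ cells at P2, and 0.372% higher and 0.403% lower at P60. Differences over the 49 ranged from -8.42 to +7.71 points at P2 and from -8.31 to +7.86 points at P60. The difference at P60 with the greatest size was that of the *Hmga2* HMR at 99470 bp, at -8.31 points in eYFP+ against eYFP- cells (Fisher's exact test, adjusted p = 0.0294). Only the P60 eYFP+ pool called this HMR, so the p-value rests on reads that also picked the region. HMR bases per window did not separate the subtypes at P60 either, with unadjusted p between 0.343 and 0.857 in the exact permutation test over 70 splits. The mean of eYFP+ minus that of eYFP- libraries was between -87.2 bp (*Igf2bp3*) and 441 bp (*Igf2bp1*). The change from P2 to P60 was not shown to differ between subtypes in any of the 7 genes (lowest p = 0.171, exact permutation within stages, adjusted p of 1 in all).

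Differentially methylated regions (DMRs) between the subtypes were rebuilt as parts of an HMR of one pool outside the HMRs of the other, kept where they spanned 50 bp or more and held 2 or more CpGs that differed. The windows held 5. Since DMRs were picked by HMR calls on the reads of these same libraries, their levels and library counts are a description. At P2, 2 of 25 candidate regions in the windows were kept as lower in eYFP+ and 1 of 14 as lower in eYFP- cells, against 6.87% and 8.12% of all candidates, and at P60 1 of 15 and 1 of 7, against 6.59% and 5.83%. With so few, these shares are near those of the genome. At P2, *Lin28a* carried 2 of opposite direction in the same intron. The HMR over its start reached 143 bp further into the gene in eYFP- cells, 1166 bp downstream of the start. There the level was 22.1% [16.5, 28.9] in eYFP- and 37.2% [30.6, 44.3] in eYFP+ cells at P2 and 59.7% and 64.7% at P60. Both eYFP- libraries and no eYFP+ library at P2 had an HMR there, and no library at P60. The adjoining HMR at 1726 bp was a DMR lower in eYFP+ cells at P2, at 31.3% against 38.9%, with 2 of 18 CpGs differing, and 1 of the 2 eYFP+ libraries had an HMR in it. At P60 its pools were at 68.2% and 67.6%.

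The other 3 DMRs were in *Hmga2* and *Igf2bp3*. An *Hmga2* DMR at 47778 bp was lower in eYFP+ cells at P2, at 27.8% [23.7, 32.4] against 35.8% [31.4, 40.5], with levels of 32.9% and 32.2% at P60. The *Hmga2* HMR at 99470 bp was a DMR lower in eYFP+ cells at P60. An *Igf2bp3* DMR of 266 bp and 4 CpGs, upstream of the start (chr6:49197281-49197546), was lower in eYFP- cells at P60, at 21.5% [16.5, 27.4] against 32.6% [26.8, 38.9]. There, 4 of 4 eYFP- and 1 of 4 eYFP+ libraries had an HMR at P60, and all P2 libraries did. Across the genome, 2185 DMRs were lower in eYFP+ and 1911 in eYFP- cells at P2, and 1253 and 1119 at P60. None of the 5 was found at both stages. For DMRs of the whole genome, the paper reports that few were kept from P2 to P60, without enrichment. It also reports that the genes associated with DMRs overlapped between the stages with enrichment, while the DMRs shifted in position. The share found at both stages among all rebuilt DMRs was not determined.

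Genes that act with the members were described by the same counts, to be read against the 27.8% (eYFP-) and 26.4% (eYFP+) of all HMRs called higher and the 3.08% and 4.01% called lower. Among 10 partners in growth, 30 of 63 HMRs were higher at P60 in eYFP- and 32 in eYFP+ cells, with 3 and 4 lower and a median difference of +8.94 and +11 points. They included *Igf1r*, the receptor of insulin-like growth factors, with 14 of 25 HMRs higher in each subtype, and an HMR at 133740 bp that went from 33.1% and 18.4% to 71.6% and 70.5%. In *Mycl*, a relative of *Mycn*, an HMR at 2769 bp went from 9.16% and 10.4% to 54.9% and 54.1%. *Igf2bp2*, the third member of the family of *Igf2bp1*, had 5 of 7 HMRs higher in each subtype.

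Among the 16 genes of the let-7 pathway, 6 of 32 HMRs were higher in eYFP- and 8 in eYFP+ cells and 1 and 0 lower, with medians of +0.31 and +1.03 points. The share called higher was below that of all HMRs in eYFP- and near it in eYFP+ cells. Calls of higher methylation lay in *Trim71*, a let-7 target, at 3 and 5 of 10 HMRs, in *Dis3l2*, whose product degrades let-7 precursors once Lin28 has marked them, at 2 of 3 in each subtype, and in *Mirlet7a-2* at its only HMR. An HMR of *Trim71* at 15914 bp went from 20% and 18.4% to 43.2% and 47.8%, and an HMR of *Dis3l2* at 331573 bp from 11.6% and 14.1% to 38.0% and 34.6%. The other 11 let-7 genes had no such call, and *Mirlet7i* had 1 HMR that was lower in eYFP- cells.

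In the family of Npy and its receptors, 3 of 10 HMRs were higher in each subtype, a share near that of all HMRs. The greatest change was in an HMR shared by the windows of *Ppy* and *Pyy*, which encode the related islet peptides, from 22.4% and 22.3% to 62.9% and 66.2%. The 4 receptor genes had no call. Other genes of immature or disallowed function in β cells had 5 of 22 HMRs higher in each subtype, also near the share of all HMRs. In *Pdgfra*, a receptor of proliferating young β cells, an HMR at 32493 bp went from 18.8% and 20.9% to 36.2% and 34.9%.

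Genes of mature β cells went mainly the other way. Of their 49 HMRs, 14 were lower at P60 in eYFP- and 18 in eYFP+ cells and 2 and 3 higher, with median differences of -2.94 and -5.98 points. In *Ucn3*, a peptide of mature β cells, the HMR over the start went from 33.1% and 37.5% to 6.31% and 8.78%. In *Glp1r*, the receptor of glucagon-like peptide, an HMR at 9434 bp went from 50.6% and 62.0% to 15.8% and 11.2%.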

How the data were processed

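T-WGBS libraries of FACS-sorted β cells were processed by the authors to mm39. The submitters' processing notes name FastQC, Trim Galore 0.6.6, cutadapt 1.16 and SAMtools 1.5, and the versions of the aligner and of MethPipe, which called the HMRs, are not given in the sources used here. The authors deposited methylated and unmethylated read counts per CpG, with libraries of a subtype and stage pooled, and HMR positions per pool and per library. All listed CpG positions hold CG in GRCm39 (100%). The eYFP- and eYFP+ columns were told apart by the numbers of regions in the study's text. A deposited score column and the authors' DMR lists, which hold their own comparison, were not used, and DMRs were rebuilt from HMRs and counts although the deposited candidates had been planned as the source.

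Pooled HMRs were merged where they overlapped. Levels are methylated over all reads. Where each pool had 10 reads or more, Fisher's exact test (two-sided) was applied to an HMR, and it compares pools and not mice. HMR presence, HMR bases per window and start-HMR widths were compared over libraries by Fisher's and exact permutation tests. P-values were adjusted by Benjamini-Hochberg over all HMRs or genes tested. Nothing states that replicates were separate mice, so the spread is that between libraries. Mean coverage was 24.2 to 43.7 reads per CpG, and the depth of single libraries is not known. Described in full were, per gene, the HMR over its start and the HMR of largest stage difference with at least 3 CpGs and 30 reads in each pool, and for other lists the 2 genes of largest difference. The values of 1 gene so chosen are not reported here. The members and lists were chosen with earlier results of these data known. The start-HMR widths, the marker levels at canonical starts (the outermost starts of some genes lie far away) and the *Hmga2* HMR that fell were added after seeing the data. Alternatives covered read minimum, minimum difference, window, HMR filters, left-out replicates and scaling. Scripts were tested on simulated data and used Python 3.11.15, NumPy 2.4.6, pandas 2.3.3, SciPy 1.17.1, numba 0.67.0, pysam 0.24.0 and Matplotlib 3.10.9.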

Additional observations from a re-analysis of the deposited data

Results flagged for a closer look

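A pair of libraries stood apart from the rest of their group in the width of the HMR over the *Lin28b* start. P60 eYFP- replicate 4 had 1679 bp and P60 eYFP+ replicate 3 had 1872 bp, while the other 3 libraries of each group all had 1991 bp. Dixon's criterion, the gap of an end value over the range, was applied to 28 groups of 4 libraries and marked these 2. In both, the other 3 libraries were tied at the full width of the merged HMR. The ratio was then 1 whatever the value that differed, so the marks do not show how unusual it was.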

How the results depend on the processing

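With no minimum difference, 29 HMRs were higher at P60 in eYFP- and 33 in eYFP+ cells and 2 lower in eYFP+ cells (42.0% and 39.6% of all HMRs higher), and between subtypes 1 was higher in eYFP+ cells at P2 and 1 lower at P60. With a minimum of 20 points, 6 and 8 were higher (12.8% and 12.4% of all) and 0 lower in both subtypes. With 50 kb on each side, 28 and 26 of 86 HMRs were higher, and 1 was higher in eYFP+ cells at P2. With at least 3 differing CpGs, 1 DMR was lower in eYFP+ cells at P2 and 0 in eYFP- cells at P60. With P60 replicates 1 and 2 alone, or 3 and 4 alone, 0 HMRs were called lost, 0 windows lower and 0 start HMRs narrower, since 4 against 4 libraries give no p below 0.0286. As a share of each library's HMR bases, 3 windows were lower and 1 start HMR narrower (13.0% and 4.41% of all), and the direction reversed, in bases per Mb of HMRs, for the windows of *Lin28b* (11.9) and *Mycn* (15.4) and the start HMRs of *Npy* (4.58), *Igf2bp1* (1.78), *Mycn* (15.7) and, not called in bases, *Lin28b* (8.19) and *Hmga2* (19.4). With 1 library left out, 6 to 7 windows were lower, 4 to 5 start HMRs narrower, 0 to 7 HMRs lost (0 without any P2 library, where fewer libraries give no p low enough) and 0 to 0 windows called between subtypes. Of the alternatives to counts, 95 stayed within 1.5 times the count as reported and 26 did not.

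With the replicate number as a block at P60, 0 of 7 windows were called between subtypes, with a lowest p of 0.375 over 16 exact sign changes that allow no p below 0.125. The deviations of same-numbered libraries correlated at 0.144, 0.102, 0.158 and 0.100 across 25093 HMRs, and each library correlated best with its own number, but 1 value was under 0.1 and at P2 the value was -0.00799, so the numbers were not taken to pair libraries. The lack of replicate counts limits levels to counting error.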
